A study of Mus musculus with 9 samples.

Results

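The collagen genes of mouse brain are described here: every gene of the deposited table whose symbol reads Col, a number, a and a number, which is the naming pattern of the collagen alpha chains. There were 44 such genes among 22482, and 35 of them were measured, meaning that their FPKM (fragments per unit of transcript length and of library size) was 0.5 or more in at least 3 of the 9 libraries. Total RNA was sequenced from brain tissue of 3 groups with 3 libraries each. Sham tissue came from mice whose skull and dura were opened without damage to the brain. TBI tissue came from the injured area after traumatic brain injury (TBI) from a falling weight, and C-β-LG/DSF tissue from the injured area of mice that were injured in the same way and then received the nanoparticle preparation C-β-LG/DSF by tail vein. Strain, sex, age, dose and time after injury are not stated in the sources used here, and no vehicle group is among the samples. Nothing says that the 3 libraries of a group are from separate mice, so p-values measure only the spread between these samples.

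Collagens are proteins built from 3 alpha chains wound into a triple helix, and most are secreted, while the transmembrane types are held in the cell membrane. Fibril-forming collagens (types I, II, III, V, XI, XXIV and XXVII) assemble into the fibres of connective tissue, type IV forms the network of basement membranes, type VI forms beaded filaments, and fibril-associated types sit on the surface of fibres. Intact brain tissue holds little fibrillar collagen outside the meninges and large vessels. Its collagen lies mainly in the basement membrane of blood vessels, and after penetrating injury a collagen-bearing scar can form where fibroblasts gather.

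FPKM totals ran from 406274 to 445404 per library, and the relative depths estimated from low values ran from 0.940 to 1.09 of that of Sham 1. Fragment counts are not given. Correlations between libraries of a group ran from 0.989 to 0.990 in Sham, from 0.946 to 0.972 in TBI and from 0.976 to 0.986 in C-β-LG/DSF. Neuronal markers were present in all libraries, with a mean of 154 ± 6.75 FPKM (SD, n = 3) for Rbfox3 in Sham, 79.8 ± 5.79 in TBI and 77.8 ± 12.7 in C-β-LG/DSF. Some libraries stood apart in the markers of neighbouring regions. The summed FPKM of 9 thalamic neuron markers was 35.4 to 35.8 in Sham, 34.9, 37.9 and 189 in TBI 1 to 3, and 30.7, 131 and 78.0 in C-β-LG/DSF 1 to 3. Ttr, a choroid plexus gene named outside the naming rule given below, was at 270.0 FPKM in TBI 3, 37.0 in TBI 1 and 0.130 in TBI 2. It was at 0.0655, 1.14 and 7.40 FPKM in Sham 1 to 3 and at 1.06 to 1.53 in C-β-LG/DSF.

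The collagen genes of the largest rise and the largest fall after injury lay on chromosomes 1 and 3. Col3a1 (ENSMUSG00000026043.18), the chain of type III collagen, occupies chr1:45311538-45349706 on the plus strand. Col24a1 (ENSMUSG00000028197.4), a fibril-forming chain, occupies chr3:145292472-145552011 on the plus strand (GRCm38). Their promoters are shown because these genes mark the ends of the range of response. The windows are the 250 bases before the start, from RefSeq on GRCm38.p6, chr1:45311288-45311537 and chr3:145292222-145292471, and the capitals mark the motifs that were searched:
Col3a1: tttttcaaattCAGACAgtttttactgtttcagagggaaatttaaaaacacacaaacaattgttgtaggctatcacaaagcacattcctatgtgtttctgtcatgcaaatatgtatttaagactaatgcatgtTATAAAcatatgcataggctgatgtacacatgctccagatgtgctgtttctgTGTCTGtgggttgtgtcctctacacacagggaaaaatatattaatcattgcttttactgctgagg
Col24a1: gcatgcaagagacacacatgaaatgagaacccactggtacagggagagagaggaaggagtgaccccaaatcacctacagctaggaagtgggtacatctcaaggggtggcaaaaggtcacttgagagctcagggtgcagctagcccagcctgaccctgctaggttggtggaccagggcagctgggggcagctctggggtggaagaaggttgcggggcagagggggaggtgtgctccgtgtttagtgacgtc

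Short motifs of common promoter elements were searched on both strands. The TATA box was spelled TATAAA and the CCAAT box by its name. The GC box was spelled GGGCGG. The AP-1 site was spelled TGANTCA, and an extended Smad box was spelled CAGACA. The Col3a1 window held CAGACA 239 bases before the start, TATAAA at 117 and TGTCTG, which is CAGACA on the other strand, at 65. The Col24a1 window held none of these letters. GC content was 35.2% in the Col3a1 window and 58.0% in that of Col24a1, against a median of 52.4% over 32851 mouse promoter windows. RefSeq windows were found for 35 of the 44 collagen genes, among them 28 of the 35 measured ones. Of these 28, 3 held TATAAA, 11 CCAAT, 19 GGGCGG, 1 TGANTCA and 8 CAGACA. Over all windows the shares were 12.4% for TATAAA, 33.8% for CCAAT, 32.7% for GGGCGG, 6.75% for TGANTCA and 17.1% for CAGACA. A collagen gene was counted if any of its windows held the motif, whereas these shares are of single windows. The counts and the shares are therefore not in like units. A match describes the letters in the window and nothing about binding.

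Injury was followed by higher RNA of many collagen genes, most of all Col3a1 and Col1a1. In TBI against Sham, 16 of the 35 measured genes rose and 2 fell at an adjusted p under 0.05 (limma on log2(FPKM + 0.5), two-sided, Benjamini-Hochberg over 14292 genes, as throughout). Over all measured genes the share that rose was 14.9% and the share that fell 12.0%. After quantile normalization, which splits all called genes into 1581 higher and 1895 lower in place of 2127 and 1709, 13 collagen genes were called. The median log2 difference of the 35 collagen genes was 0.76, against 0.01 for all genes tested, and 30 of the 35 differences were above 0. In bulk tissue, more RNA per cell and more cells of a type that makes it cannot be told apart.

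**Figure D1:**
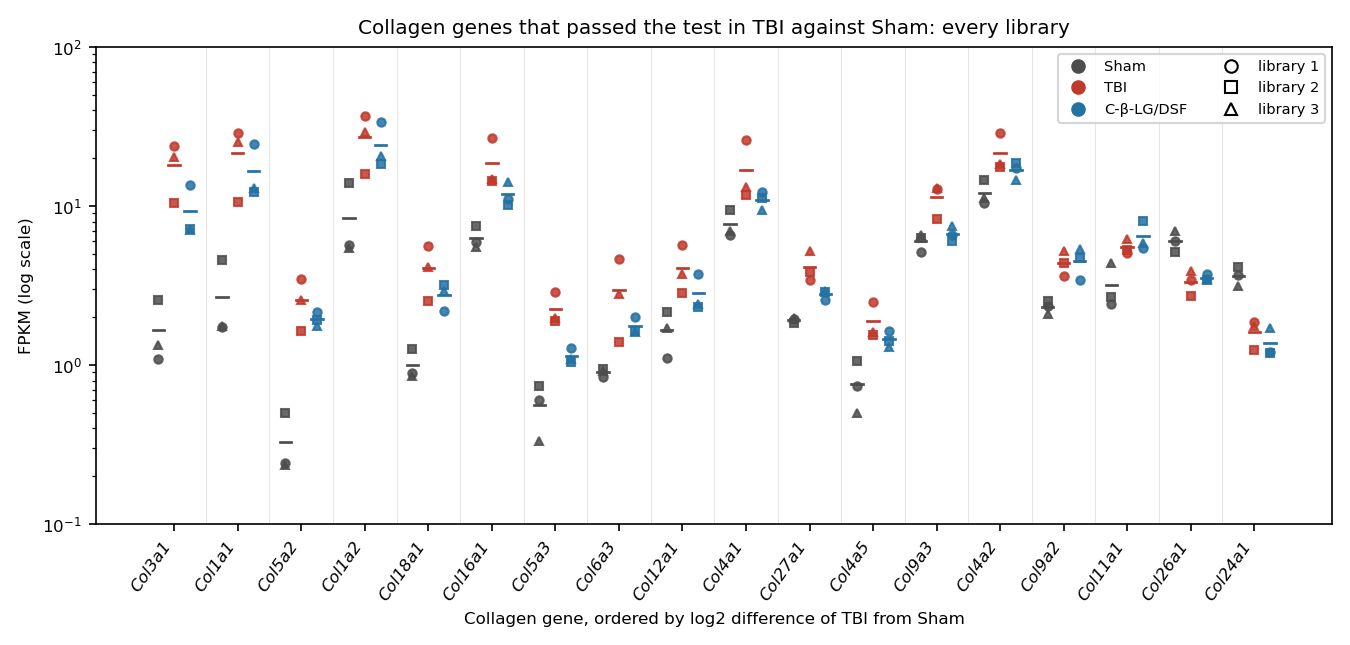
FPKM (log scale) of the 18 collagen genes that passed the test in TBI against Sham, ordered by their log2 difference. Each point is 1 library, its shape the library number, and the bar the group mean. The 3 TBI libraries of Col3a1 sit between 10.4 and 23.8 FPKM, above the Sham libraries at 1.09 to 2.55, and Col24a1 and Col26a1 at the right lie lower in both injured groups.

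Fibril-forming collagens held the largest rises. Of the 11 genes of this class, all measured, 7 rose and 1 fell in TBI, against 14.9% and 12.0% of all measured genes. Col3a1 was at 1.09, 2.55 and 1.34 FPKM in Sham 1 to 3, at 23.8, 10.4 and 20.3 in TBI 1 to 3, and at 13.6, 7.13 and 7.12 in C-β-LG/DSF 1 to 3. Every injured library lay above every Sham library, and the treated libraries overlapped TBI only through C-β-LG/DSF 1. The Sham mean was 1.66 ± 0.784 FPKM (SD, n = 3) and that of TBI 18.2 ± 6.96. The rise measured 3.09 on the log2 scale (SE 0.37, adjusted p = 0.00111).

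Type I collagen, the main fibre of scar, skin and bone, is made of the chains of Col1a1 (ENSMUSG00000001506.10, chr11:94936224-94953042, plus strand) and Col1a2 (ENSMUSG00000029661.16, chr6:4504814-4541544, plus strand). Col1a1 stood at 1.73, 4.56 and 1.77 FPKM in Sham, 28.8, 10.6 and 25.2 in TBI and 24.5, 12.3 and 13.0 in C-β-LG/DSF. Col1a2 stood at 5.73, 13.9 and 5.43 FPKM in Sham, 36.8, 15.9 and 29.2 in TBI and 33.8, 18.3 and 20.7 in C-β-LG/DSF. For both genes Sham 2 was the highest Sham library and TBI 2 the lowest TBI library, and the injured libraries still lay above it. The log2 difference of TBI from Sham was 2.78 for Col1a1 (SE 0.44, adjusted p = 0.00287) and 1.70 for Col1a2 (SE 0.40, adjusted p = 0.0147). The Col1a2 call was lost without Sham 1 (1.51, adjusted p = 0.0585) or without Sham 3 (1.47, adjusted p = 0.0597). Sham 2 also had the highest sum of the fibroblast and meningeal markers among the Sham libraries, 131 FPKM against a lowest value of 78.3, and the part of this in the spread was not tested.

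Type V collagen chains are incorporated into type I fibres and are known to limit their width. Col5a2 was at 0.244, 0.503 and 0.235 FPKM in Sham, 3.47, 1.63 and 2.57 in TBI and 2.16, 1.93 and 1.75 in C-β-LG/DSF. Col5a3 was at 0.605, 0.744 and 0.332 FPKM in Sham, 2.88, 1.88 and 1.98 in TBI and 1.28, 1.05 and 1.10 in C-β-LG/DSF. Neither gene overlapped between Sham and TBI, and both rose, by a log2 difference of 1.86 for Col5a2 (SE 0.24, adjusted p = 0.00151) and 1.38 for Col5a3 (SE 0.21, adjusted p = 0.00244). In Sham, Col5a2 reached 0.5 FPKM only in Sham 2, and Col5a3 only in Sham 1 and Sham 2. Both genes thus met the measuring limit only with the injured libraries, where they were high. Col5a1, the most common type V chain, did not pass, at 10.7, 7.71 and 7.56 FPKM in Sham, 11.9, 14.5 and 5.87 in TBI and 10.2, 6.00 and 7.50 in C-β-LG/DSF (log2 difference 0.23, adjusted p = 0.624). TBI 3, the library with the high thalamic sum, was its lowest TBI library, and without TBI 2 the difference turned to -0.026. Col5a2 lies next to Col3a1 on chromosome 1, with 24614 bases between the genes, which point towards each other.

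Types XI, XXIV and XXVII complete the class. Col11a1, known from cartilage, was at 2.42, 2.70 and 4.40 FPKM in Sham, 5.04, 5.31 and 6.19 in TBI and 5.47, 8.10 and 5.83 in C-β-LG/DSF. Its log2 difference of 0.74 (SE 0.21, adjusted p = 0.0306) had the largest adjusted p of the 16 genes that rose, and the call was lost without Sham 1 (0.60), Sham 2 (0.66), TBI 1 (0.80), TBI 2 (0.77) or TBI 3 (0.66) and after quantile normalization (0.53). Col27a1, a fibril-forming chain of cartilage, was at 1.96, 1.85 and 1.99 FPKM in Sham, 3.45, 3.84 and 5.21 in TBI and 2.58, 2.87 and 2.93 in C-β-LG/DSF. The 3 groups of Col27a1 did not overlap, and TBI was higher than Sham by 0.92 on the log2 scale (SE 0.15, adjusted p = 0.0035). Col11a2, which did not pass, ranged from 8.20 to 9.93 FPKM in Sham, from 10.1 to 13.9 in TBI and from 6.96 to 11.4 in C-β-LG/DSF. Col2a1, the main collagen of cartilage, reached 0.811 FPKM at most and was only just measured.

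Col24a1, the only fibril-forming gene that fell, was at 3.68, 4.13 and 3.13 FPKM in Sham, 1.86, 1.24 and 1.77 in TBI and 1.22, 1.20 and 1.72 in C-β-LG/DSF. All 6 injured libraries lay below all Sham libraries. The mean fell from 3.65 ± 0.50 FPKM (SD, n = 3) to 1.62 ± 0.337, a log2 difference of -0.97 (SE 0.18, adjusted p = 0.00552). Neuronal markers moved in the same direction, with 3 of 7 lower in TBI at an adjusted p under 0.05, where 12.0% of all measured genes fell. These were Snap25 (-1.10), Rbfox3 (-0.94) and Syt1 (-0.77). The rest of the list, Gad1 (-0.75), Slc17a7 (-0.59), Gad2 (-0.44) and Stmn2 (-0.29), did not pass. The part of neurons in the Col24a1 value was not tested. Summed neuronal FPKM was 3008 to 3124 in Sham, 1499 to 2159 after TBI and 1879 to 2399 with C-β-LG/DSF.

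Basement membrane collagen was higher as well. Of 6 type IV genes 4 were measured, and 3 of these rose, where 14.9% of all measured genes did. Col4a1 was at 6.61, 9.49 and 6.98 FPKM in Sham, 25.9, 11.7 and 13.2 in TBI and 12.3, 11.2 and 9.41 in C-β-LG/DSF, and Col4a2, its partner in the common type IV trimer, at 10.5, 14.5 and 11.2, at 28.9, 17.6 and 18.3, and at 17.4, 18.8 and 14.5. TBI 1 stood above all other libraries for both genes. The log2 differences were 1.02 for Col4a1 (SE 0.27, adjusted p = 0.0218) and 0.79 for Col4a2 (SE 0.20, adjusted p = 0.0185). Both calls were lost without Sham 1 (0.93 and 0.70) or without Sham 3 (0.96 and 0.75), and without TBI 1 the Col4a1 difference was 0.68. The pair lies head to head on chromosome 8 with 22 overlapping bases and shares a locus in the deposited table. The kit keeps strand, but whether the counting used it is not given, so reads of the overlap are uncertain.

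Col4a5, a chain of a second type IV network, was at 0.739, 1.06 and 0.50 FPKM in Sham, 2.5, 1.55 and 1.61 in TBI and 1.63, 1.41 and 1.31 in C-β-LG/DSF. It rose by a log2 difference of 0.92 (SE 0.22, adjusted p = 0.015), a call that was lost without Sham 3 (0.76) and after quantile normalization (0.53). Its head-to-head neighbour Col4a6, 1308 bases away on the X chromosome, was at 0.214 to 0.444 FPKM in Sham and 0.677 to 1.90 in TBI and did not pass. Col4a3 and Col4a4, known from the kidney glomerulus, were below the measuring limit. Of the markers of endothelium, a cell type that makes this membrane, 3 of 11 were higher in TBI (Cldn5, Emcn and Tie1, adjusted p under 0.05), with sums of 124 to 155 FPKM in Sham and 154 to 274 in TBI. Of 10 mural cell markers 3 were higher (Anpep, Tagln and Notch3), with sums of 90.4 to 125 in Sham and 105 to 162 in TBI. Over all measured genes 14.9% rose in TBI, and the part of these cell types in the collagen values was not tested.

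The beaded-filament chains of type VI varied between the TBI libraries. Col6a1, the collagen gene with the highest mean FPKM in Sham, stood at 22.8, 15.7 and 21.5 there, 36.8, 32.0 and 17.1 in TBI and 24.6, 20.1 and 15.3 in C-β-LG/DSF. Col6a2 was at 7.79, 6.91 and 5.32 in Sham, 13.1, 14.6 and 7.99 in TBI and 11.0, 7.39 and 6.39 in C-β-LG/DSF. TBI 3 was the lowest TBI library for both genes and lay within the Sham range for Col6a1. Neither passed (log2 differences 0.45 and 0.76, adjusted p = 0.268 and 0.0538). Without TBI 3 both did, at 0.78 (adjusted p = 0.0232) and 1.02 (adjusted p = 0.0106).

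Col6a3, which encodes the longest classical type VI chain, rose by a log2 difference of 1.18 (SE 0.31, adjusted p = 0.0201). It was at 0.845, 0.948 and 0.920 FPKM in Sham, 4.65, 1.40 and 2.81 in TBI and 2.01, 1.64 and 1.61 in C-β-LG/DSF. The Sham libraries were close together and the TBI libraries wide apart. The call was lost without Sham 1 (1.15), Sham 2 (1.21) or Sham 3 (1.19) and after quantile normalization (0.82). Col6a4 was measured and did not pass, while Col6a5 and Col6a6 were not measured. Col6a5 reached 0.5 FPKM in 2 libraries, 1 short of the limit, whereas Col2a1 and Col13a1 met it in exactly 3.

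Among fibril-associated collagens, 4 of the 7 measured genes rose and none fell in TBI, against 14.9% and 12.0% of all measured genes. Col16a1, which binds integrins and fibres, was at 5.93, 7.52 and 5.51 FPKM in Sham, 26.6, 14.4 and 14.7 in TBI and 11.1, 10.2 and 14.2 in C-β-LG/DSF. Its groups did not overlap at any point, and TBI was higher than Sham by 1.44 on the log2 scale (SE 0.23, adjusted p = 0.00315). Col12a1, a linker on type I fibres, was at 1.10, 2.17 and 1.71 FPKM in Sham, 5.67, 2.85 and 3.73 in TBI and 3.74, 2.33 and 2.41 in C-β-LG/DSF. It rose by 1.07 (SE 0.27, adjusted p = 0.0199), and the call was lost without Sham 1 (0.87), Sham 3 (1.10) or TBI 1 (0.83) and after quantile normalization (0.76).

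Col9a2 and Col9a3, chains of type IX collagen, which decorates cartilage fibrils, also rose. Col9a2 was at 2.34, 2.52 and 2.1 FPKM in Sham, 3.63, 4.37 and 5.19 in TBI and 3.45, 4.69 and 5.39 in C-β-LG/DSF. Col9a3 was at 5.14, 6.26 and 6.60 FPKM in Sham, 12.8, 8.35 and 13.0 in TBI and 6.55, 6.04 and 7.48 in C-β-LG/DSF. Both injured groups lay above Sham for Col9a2, whereas for Col9a3 only TBI did. The log2 differences of TBI from Sham were 0.79 for Col9a2 (SE 0.18, adjusted p = 0.0121) and 0.85 for Col9a3 (SE 0.18, adjusted p = 0.00825). Quantile normalization lowered the Col9a2 difference to 0.52 and ended its call. Col9a3 overlaps Tcfl5 on the opposite strand, so reads of that overlap are uncertain too, and its length was not measured.

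Markers of oligodendrocyte precursors were higher in TBI as well, with 7 of 7 passing against Sham. Their sums were 50.7 to 58.2 FPKM in Sham, 108 to 113 after TBI and 80.0 to 90.7 with C-β-LG/DSF. From TBI to C-β-LG/DSF the log2 difference was 0.03 for Col9a2 and -0.70 for Col9a3. The part of these cells in the type IX values was not tested. Bone and cartilage markers were low, with 6 of 11 under 1 FPKM in every library and Bglap2 at 0 in all. The bone and cartilage sums were 8.40 to 10.1 in Sham, 8.10 to 12.3 after TBI and 8.52 to 9.16 with C-β-LG/DSF. Cnmd was the 1 marker that rose in TBI, to 2.78 ± 2.81 FPKM (SD, n = 3), where 14.9% of all measured genes rose.

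The remaining classes held few changes. Col18a1, whose C-terminal fragment is endostatin, was at 0.896, 1.26 and 0.856 FPKM in Sham, 5.62, 2.53 and 4.13 in TBI and 2.19, 3.18 and 2.92 in C-β-LG/DSF, and it rose by 1.56 on the log2 scale (SE 0.25, adjusted p = 0.00314). It overlaps Slc19a1 on the opposite strand. Col15a1, the other vessel-associated multiplexin, ranged from 1.83 to 2.71 FPKM in Sham and from 2.38 to 3.32 in TBI and did not pass. None of the 3 measured transmembrane collagens passed. Col23a1 was at 2.66, 2.97 and 2.18 FPKM in Sham, 6.94, 5.01 and 1.73 in TBI and 6.17, 4.27 and 4.68 in C-β-LG/DSF. Its low value in TBI 3 stood below all Sham libraries, and without that library the difference went from 0.55 (adjusted p = 0.316) to 1.05 (adjusted p = 0.00539). The fibril-associated Col20a1 also passed without TBI 3, at 0.65 in place of 0.54.

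Col25a1, a neuronal transmembrane collagen found in amyloid plaques, was at 4.02, 6.52 and 6.80 FPKM in Sham, 3.23, 6.40 and 11.4 in TBI and 9.20, 12.8 and 11.3 in C-β-LG/DSF. Every treated library lay above every Sham library and TBI spanned both, and the gene passed in no comparison. The short-chain genes Col8a1 and Col8a2 did not pass either. Col26a1, known from reproductive tissue and given with the anchoring fibril gene Col7a1 here, was the second gene that fell. It was at 6.06, 5.14 and 6.95 FPKM in Sham, 3.44, 2.71 and 3.90 in TBI and 3.74, 3.41 and 3.48 in C-β-LG/DSF. Injured and Sham libraries did not overlap, and TBI was lower by a log2 difference of -0.77 (SE 0.15, adjusted p = 0.00687).

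In all, the summed FPKM of the 44 collagen genes was 123 to 143 in Sham, 213 to 327 after TBI and 184 to 228 with C-β-LG/DSF, with medians of 124, 246 and 191. The fibril-forming share of this sum was 28.2% to 34.1% in Sham, 35.5% to 46.0% after TBI and 37.2% to 44.7% with C-β-LG/DSF, so that neither injured group overlapped Sham. Col1a1 was 14th by mean FPKM among the collagen genes in Sham and 4th in TBI and C-β-LG/DSF. Col6a1 led in Sham and TBI, followed in TBI by Col1a2, Col4a2, Col1a1 and Col16a1. In C-β-LG/DSF Col1a2 led, at 24.2 ± 8.34 FPKM, and Col6a1 followed at 20.0 ± 4.67, a gap smaller than either SD. The 9 genes that were not measured (Col4a3, Col4a4, Col6a5, Col6a6, Col9a1, Col10a1, Col17a1, Col22a1 and Col28a1) reached 0.677 FPKM at most, in Col6a6 of TBI 1.

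The table gives an interval around each FPKM value, made by the authors' program. For Col1a1, Col3a1 and Col5a2 the lower bound of 2 TBI libraries lay above the upper bound of every Sham library, and for Col18a1 that of 1 did. For the other 12 genes that rose the intervals of all TBI libraries reached into those of Sham, so for them the difference rests on the agreement of the 3 libraries. Among the genes called, the interval included 0 in 6 of 9 libraries for Col24a1 and for Col11a1 and in 3 of 9 for Col18a1 and Col6a3.

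**Figure D2:**
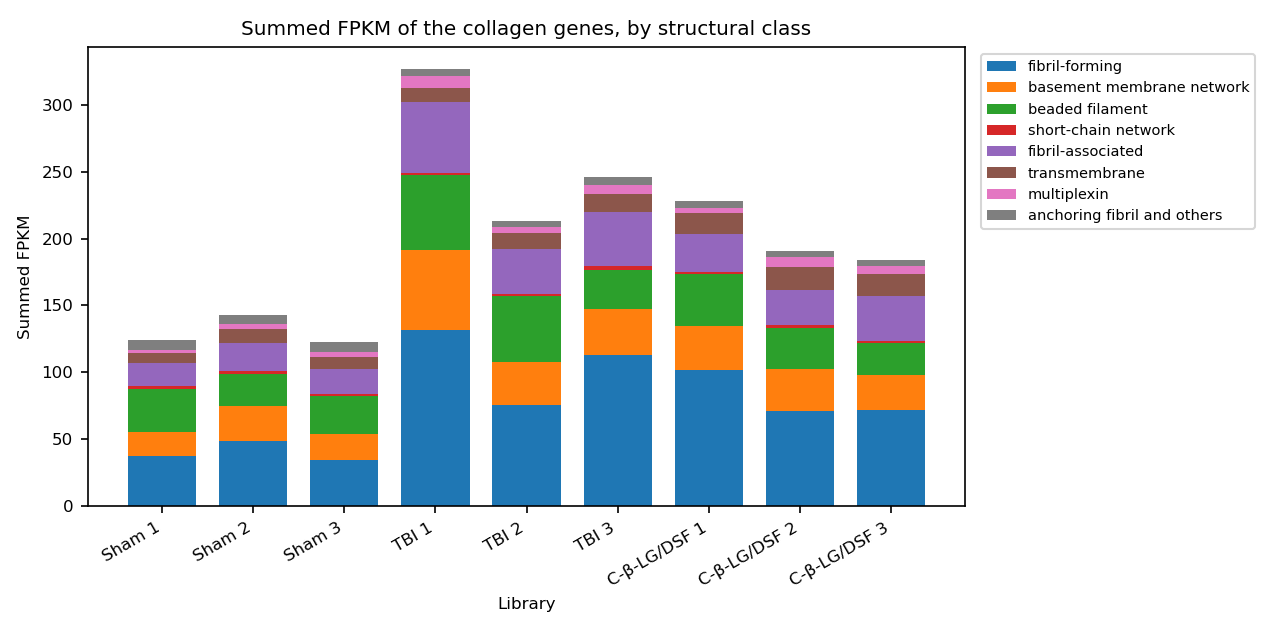
Summed FPKM of the collagen genes in each of the 9 libraries, stacked by structural class. The fibril-forming part (bottom) is 34.6 to 48.7 FPKM in Sham, 75.6 to 132 after TBI and 71.0 to 102 with C-β-LG/DSF, and TBI 1 has the highest total.

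Whether the nanoparticle preparation went with a different collagen response is addressed by C-β-LG/DSF against TBI. No collagen gene passed the test there (0 of 35, smallest adjusted p 0.394), and no gene of the 14292 did, a background of 0.0%. At an unadjusted p under 0.05, 5 collagen genes lay lower with C-β-LG/DSF (Col3a1, Col5a3, Col9a3, Col16a1 and Col27a1) and 0 were higher, where 7.47% of all genes were lower and 4.37% higher. The libraries of the groups did not overlap for 5 genes, all lower in C-β-LG/DSF (Col5a3, Col7a1, Col9a3, Col16a1 and Col27a1), and for 0 in the other direction, against 9.28% and 5.97% of all genes. The median log2 difference was -0.31 over the 35 collagen genes and -0.02 over all genes, and 27 of the 35 were below 0. The same TBI libraries enter this comparison and the one with Sham, so this direction is not independent of the rise given above. Thalamic marker sums were uneven in both groups, at 34.9, 37.9 and 189 FPKM in TBI 1 to 3 and 30.7, 131 and 78.0 in C-β-LG/DSF 1 to 3. The part of thalamic tissue in this comparison was not tested.

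Single genes had intervals that leave a wide range of differences. Col9a3 had the smallest p of the collagen genes, with means of 11.4 ± 2.63 FPKM in TBI and 6.69 ± 0.731 in C-β-LG/DSF and a log2 difference of -0.70 (95% interval -1.10 to -0.31, adjusted p = 0.394). The Col9a3 level in C-β-LG/DSF overlapped Sham. Col5a3 followed at -0.73 (-1.20 to -0.25, adjusted p = 0.394), with 2.25 ± 0.550 FPKM in TBI and 1.14 ± 0.118 in C-β-LG/DSF. Col27a1 differed by -0.49 (-0.84 to -0.14, adjusted p = 0.394), Col3a1 by -0.92 (-1.74 to -0.09, adjusted p = 0.401) and Col16a1 by -0.58 (-1.11 to -0.06, adjusted p = 0.401). The type I chains differed little, by -0.32 for Col1a1 (-1.31 to 0.68, adjusted p = 0.77) and -0.14 for Col1a2 (-1.04 to 0.77, adjusted p = 0.897), with intervals that hold both lower and higher levels. A miss of the threshold does not show that the groups were alike. Of 6 myeloid markers 0 passed in this comparison, and their summed FPKM was 340 to 713 in TBI, 139 to 241 in C-β-LG/DSF and 43.6 to 60.0 in Sham.

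**Figure D3:**
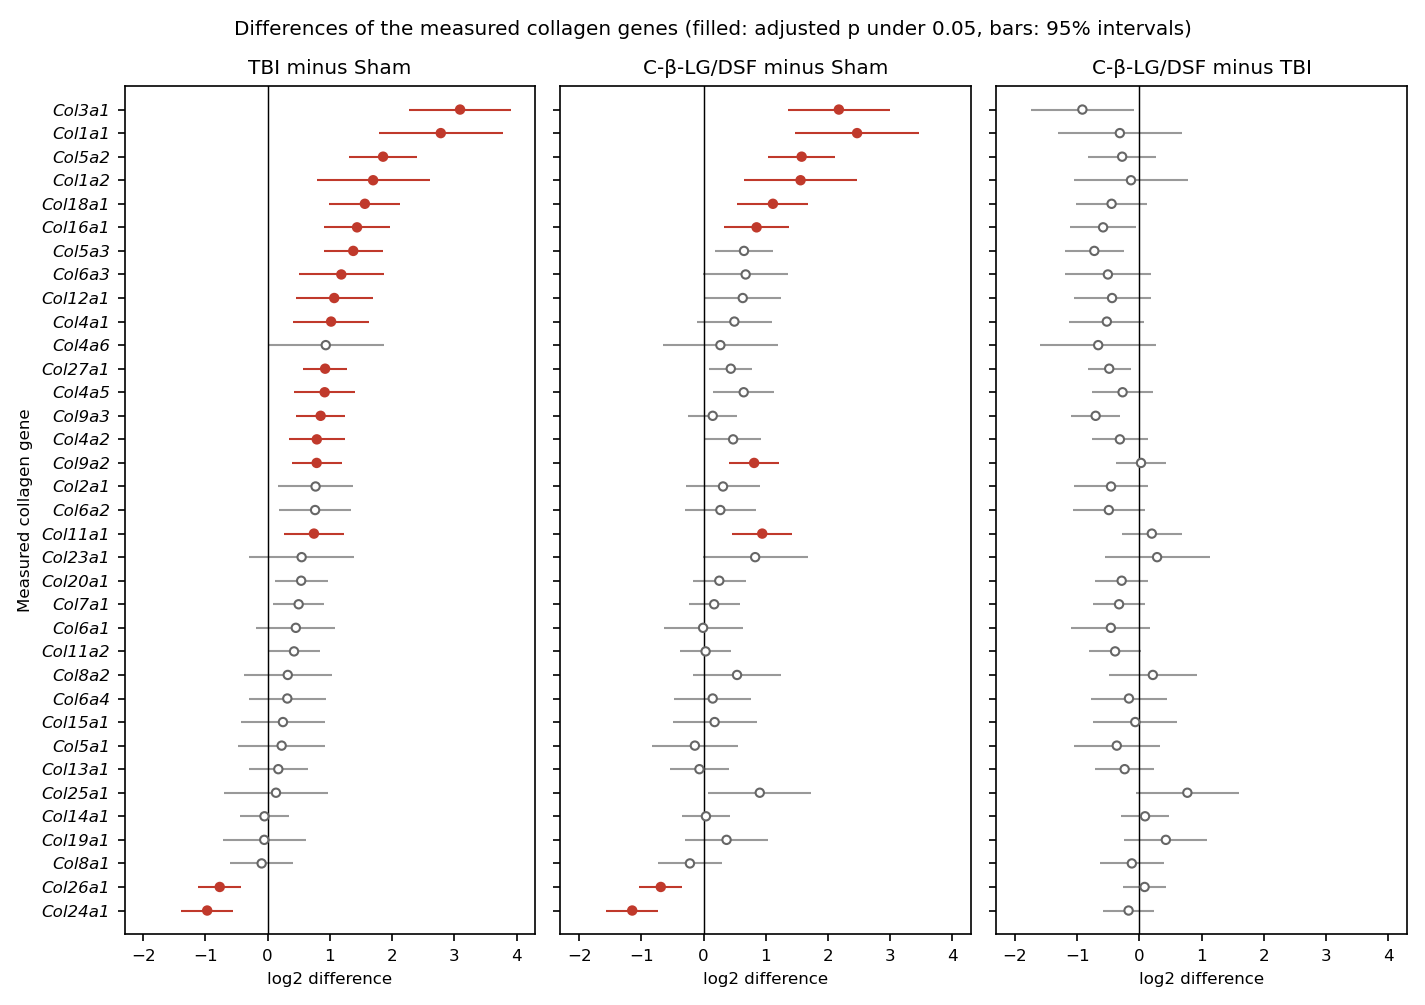
Log2 differences of the 35 measured collagen genes in the 3 comparisons, with points for the estimate and lines for its 95% interval, both from the fit on log2(FPKM + 0.5). Filled points passed at an adjusted p under 0.05: 18 in TBI minus Sham, 10 in C-β-LG/DSF minus Sham and 0 in C-β-LG/DSF minus TBI.

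Treated injured tissue still differed from Sham. In C-β-LG/DSF against Sham, 8 collagen genes rose (Col1a1, Col1a2, Col3a1, Col5a2, Col9a2, Col11a1, Col16a1 and Col18a1) and 2 fell (Col24a1 and Col26a1), against 6.37% and 6.88% of all genes tested. Quantile normalization splits all called genes into 652 higher and 960 lower in place of 911 and 984. The median log2 difference over the 35 genes was 0.44, against 0.01 for all genes, and 29 were above 0. All 10 were also called in TBI against Sham, a comparison that uses the same Sham libraries, and 8 genes were called there but not here. All 16 genes that rose in TBI had a mean difference above 0 in C-β-LG/DSF too. Of these, 14 were lower than in TBI and Col9a2 and Col11a1 were higher. The 16 genes were chosen by their high values in the same TBI libraries. That choice alone favours lower means in another group, so this count is no test of the preparation.

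Set side by side, the differences from Sham in TBI and in C-β-LG/DSF were 3.09 and 2.18 for Col3a1 (SE 0.37, adjusted p = 0.00682 in C-β-LG/DSF). For Col1a1 they were 2.78 and 2.47 (SE 0.44, adjusted p = 0.00873), for Col5a2 1.86 and 1.58 (SE 0.24, adjusted p = 0.00488), and for Col24a1 -0.97 and -1.15 (SE 0.18, adjusted p = 0.00586). These 4 calls held under every alternative processing that was run. The other 6 were Col1a2 (1.56, adjusted p = 0.0347), Col18a1 (1.11, adjusted p = 0.0216), Col11a1 (0.94, adjusted p = 0.0212), Col16a1 (0.85, adjusted p = 0.0424), Col9a2 (0.81, adjusted p = 0.0189) and Col26a1 (-0.69, adjusted p = 0.0198). Each of these 6 lost its call without some library, and the number called was 4 without Sham 1, C-β-LG/DSF 2 or C-β-LG/DSF 3, 5 without Sham 3, and 8 without Sham 2 or C-β-LG/DSF 1. With only the Sham and C-β-LG/DSF libraries in the fit, 17 genes were called.

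Genes that rose in TBI and did not pass in C-β-LG/DSF include the vascular type IV chains. Col4a1 differed from Sham by 0.50 (adjusted p = 0.254) and Col4a2 by 0.48 (adjusted p = 0.146) in C-β-LG/DSF, and their differences from TBI were -0.52 (95% interval -1.13 to 0.08) and -0.31 (-0.76 to 0.13). Endothelial marker sums were 136 to 192 FPKM and mural sums 103 to 114 in C-β-LG/DSF, and no marker of either list passed against Sham. Col9a3 was 0.15 above Sham (adjusted p = 0.617), Col27a1 0.44 (adjusted p = 0.0934), Col5a3 0.65 (adjusted p = 0.0712), Col4a5 0.65 (adjusted p = 0.0829), Col6a3 0.68 (adjusted p = 0.173) and Col12a1 0.63 (adjusted p = 0.161). A call in TBI and none in C-β-LG/DSF is no test of a difference between them. That test is the comparison above, in which none passed.

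Ratios between chains within a library do not change when the library is scaled by 1 factor. They were taken from the deposited FPKM, and ratios after quantile normalization were not computed. Type I collagen is mostly built from a pair of chains of Col1a1 and 1 of Col1a2. The ratio of Col1a1 to Col1a2 FPKM was 0.302, 0.328 and 0.325 in Sham, 0.782, 0.666 and 0.866 in TBI and 0.726, 0.675 and 0.628 in C-β-LG/DSF. Both injured groups lay above Sham without overlap (exact permutation p = 0.1, two-sided, the smallest that 3 libraries against 3 can give). Col1a1 thus differed more than its partner, in all 6 injured libraries. The ratio of C-β-LG/DSF to TBI overlapped (exact permutation p = 0.3).

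Col3a1 to Col1a1, a pair chosen after its values were seen, stood at 0.627, 0.559 and 0.758 in Sham, 0.827, 0.986 and 0.805 in TBI and 0.555, 0.578 and 0.548 in C-β-LG/DSF. TBI lay above both other groups (exact permutation p = 0.1 for each), and C-β-LG/DSF overlapped Sham (exact permutation p = 0.2). Col5a2 to Col5a1 was 0.0229 to 0.0653 in Sham, 0.113 to 0.439 after TBI and 0.213 to 0.321 with C-β-LG/DSF, with no overlap of either injured group with Sham. Col9a3 to Col9a2 was 2.2, 2.49 and 3.15 in Sham, 3.52, 1.91 and 2.51 in TBI and 1.90, 1.29 and 1.39 in C-β-LG/DSF, where the treated libraries lay below both other groups (exact permutation p = 0.1 for each). Col4a1 to Col4a2 was 0.623 to 0.653 in Sham, 0.667 to 0.895 after TBI and 0.595 to 0.708 with C-β-LG/DSF. For Col6a2 to Col6a1 all groups overlapped, and for Col6a3 to Col6a1 only C-β-LG/DSF lay clear of Sham. Over the 21 tests of 7 ratios in 3 comparisons the smallest adjusted p was 0.21, so none passed.

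**Figure D4:**
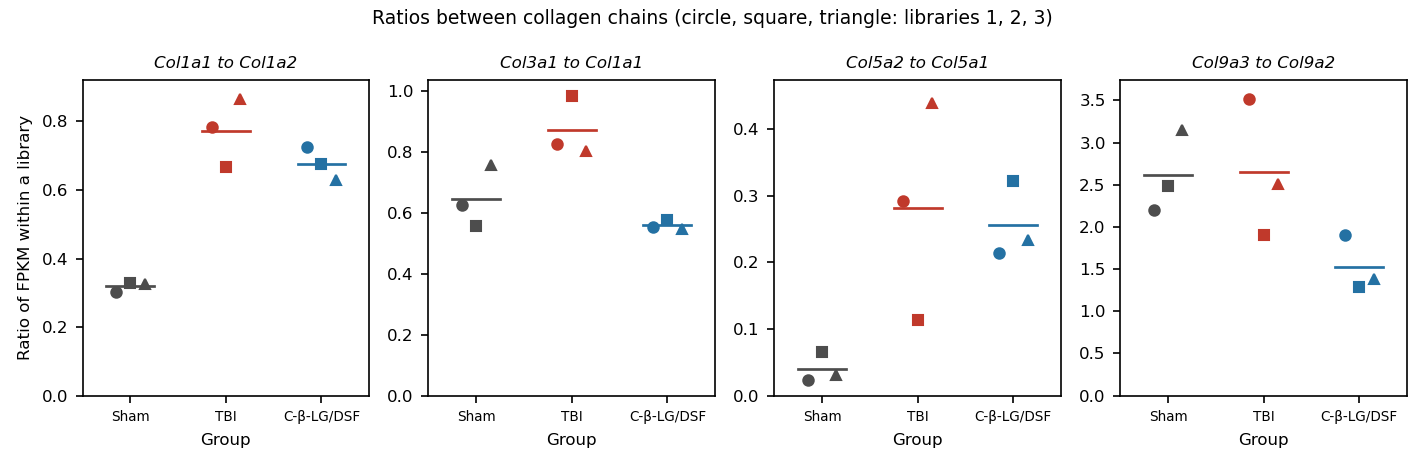
Ratio of the FPKM of the first chain to that of the second within each library for 4 chain pairs, with the group mean as a line. Col1a1 to Col1a2 lies at 0.302 to 0.328 in Sham and at 0.628 to 0.866 in the injured libraries, and Col9a3 to Col9a2 lies lowest in C-β-LG/DSF.

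Many, but not all, genes that serve collagen production rose in TBI. Over all measured genes the share that rose against Sham was 14.9% in TBI and 6.37% in C-β-LG/DSF. Newly made chains are hydroxylated and folded in the endoplasmic reticulum, and of 18 genes for these steps 11 rose and 0 fell in TBI, with a median log2 difference of 0.71, while 7 did not pass. Plod1, a lysyl hydroxylase, rose from 6.56 ± 0.152 FPKM (SD, n = 3) to 18.7 ± 3.96 (1.42, adjusted p = 0.000808) and was at 12.6 ± 1.53 in C-β-LG/DSF. Serpinh1, the collagen chaperone HSP47, rose from 7.63 ± 1.91 FPKM to 24.5 ± 10.4 (1.56, adjusted p = 0.00478) and was at 21.4 ± 3.24 in C-β-LG/DSF. Plod3 rose by 0.74 (adjusted p = 0.00514). Between C-β-LG/DSF and Sham these 3 alone of the 18 rose.

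Of 10 measured genes for propeptide removal and cross-linking, 6 rose in TBI and 4 did not pass, with a median of 0.81. Lox, the lysyl oxidase that starts cross-links, was at 0.272 ± 0.0226 FPKM (SD, n = 3) in Sham, 2.38 ± 0.902 in TBI and 1.50 ± 0.774 in C-β-LG/DSF, and it rose by 1.85 in TBI (adjusted p = 0.00328). The related Loxl1 and Loxl3 rose by 1.15 (adjusted p = 0.0127) and 1.05 (adjusted p = 0.00904). In C-β-LG/DSF against Sham 4 rose, among them Lox and Loxl1 but not Loxl3, and 1 fell. The gene that fell was Bmp1, a procollagen C-proteinase named here after its values were seen. It was at 37.1 to 47.3 FPKM in Sham, 27.6 to 43.6 after TBI and 21.6 to 28.4 with C-β-LG/DSF.

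Of 9 measured collagen receptors, 4 rose in TBI (median 0.44). In C-β-LG/DSF against Sham 3 rose, namely Adgrg1, Ddr1 and Itga10, the last named after its values were seen. Adgrg1, a receptor of type III collagen in brain, rose from 22.4 ± 2.98 to 47.3 ± 2.64 FPKM (SD, n = 3; 1.07, adjusted p = 0.00127). Lair1, an inhibitory receptor of leukocytes, rose by 1.08 (adjusted p = 0.00203), and Ddr1, a receptor tyrosine kinase, by 0.83 (adjusted p = 0.00242). Of 14 other basement membrane genes 4 rose (median 0.36), with Lamb1 at 1.01 (adjusted p = 0.0123), Nid1 at 0.99 (adjusted p = 0.0293) and Nid2 at 0.97 (adjusted p = 0.0332), and 1 rose in C-β-LG/DSF against Sham, Lamb1.

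Of 14 genes for proteins that bind fibrils 6 rose in TBI (median 0.45), and C-β-LG/DSF against Sham had 3. Sparc, a collagen-binding glycoprotein, rose from 68.3 ± 4.76 to 264 ± 61.3 FPKM (SD, n = 3; 1.92, adjusted p = 0.00213) and stood at 243 ± 94.3 in C-β-LG/DSF. The small proteoglycans Dcn and Lum, which also mark fibroblasts, rose by 1.68 (adjusted p = 0.00405) and 1.54 (adjusted p = 0.00132). Across all 5 of these lists 0 genes passed between C-β-LG/DSF and TBI.

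Some fibroblast and meningeal markers were higher in the injured groups. Of 12 markers, all measured, 4 rose in TBI against Sham (Lum, Dcn, Twist1 and Igfbp2). In C-β-LG/DSF against Sham 4 rose, of which Lum and Dcn were the same and Aldh1a2 and Crabp2 were not. Igfbp2, Aldh1a2 and Crabp2 are named after their values were seen. From TBI to C-β-LG/DSF none passed, and the median log2 difference was 0.30 for these markers and -0.36 for the fibril-forming collagens. Their summed FPKM was 78.3 to 131 in Sham, 119 to 250 after TBI and 131 to 187 with C-β-LG/DSF. Twist1 rose by 1.14 in TBI (adjusted p = 0.0216). No marker of this list was at 0 in any library. All 6 myeloid markers rose in both injured groups against Sham, with Lyz2 from 3.81 ± 0.562 FPKM (SD, n = 3) in Sham to 292 ± 123 in TBI and 90.0 ± 31.5 in C-β-LG/DSF. Of 7 measured choroid plexus markers 2 rose in TBI (Kl and Sostdc1), with sums of 1.74 to 11.5 FPKM in Sham, 5.16 to 287 after TBI and 6.20 to 15.2 with C-β-LG/DSF. Of 9 thalamic markers 1 rose in each injured group against Sham, Prkcd. The shares of all measured genes that rose against Sham were 14.9% in TBI and 6.37% in C-β-LG/DSF. What part the cells of these lists had in the collagen values was not tested.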

How the data were processed

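Per the labels' protocols, brain RNA was isolated by Trizol and sequenced from a stranded total RNA kit of Illumina. The authors deposited FPKM per gene and library with the bounds of an interval around each value; HISAT2 2.1.0 and Cufflinks 2.2.1 are named in the submitters' processing notes. The build, the annotation and fragment counts are not given in the sources used. Identifiers matched GENCODE M21 (GRCm38) for 22452 of 22482 genes.

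Genes at 0.5 FPKM or more in at least 3 of 9 libraries (14292) were fitted as log2(FPKM + 0.5) in limma 3.58.1 (R 4.3.3), fitting the 3 group means with a variance trend (6 residual degrees of freedom). Tests were two-sided, with Benjamini-Hochberg adjustment. The added 0.5 understates differences of low genes. The procedure was tested on simulated data. Chain ratios were compared by exact permutation. Every measured collagen gene could be named, with all libraries given for those that passed in a comparison, the highest of each class and their partner chains, and from each other list the 3 genes of smallest p in TBI against Sham. The members and lists were chosen with earlier results of these data known. Alternatives were other pseudocounts, filters, scalings, fits and leaving out each library.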

Additional observations from a re-analysis of the deposited data

How the results depend on the processing

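In TBI against Sham 18 collagen genes were called, 13 after quantile normalization, 20 without the filter, 12 to 21 when 1 library was left out, and 18 with a pseudocount of 0.1 or 1, a filter on mean FPKM of 1, median-ratio scaling, only these 2 groups or robust moderation. Of the 18, 10 were called under every alternative: Col1a1, Col3a1, Col5a2, Col5a3, Col9a3, Col16a1, Col18a1, Col24a1, Col26a1 and Col27a1. C-β-LG/DSF against TBI gave 0 under all 15 alternatives. In C-β-LG/DSF against Sham 10 were called, 17 with only these 2 groups, 7 after quantile normalization, 8 without the filter, and 4 to 8 with 1 library left out. Some differences changed sign when 1 library was left out, all of them uncalled. For C-β-LG/DSF minus TBI the range was -0.48 to 0.12 for Col1a2 (-0.14 with all libraries), -0.10 to 0.19 for Col9a2 (0.03) and -0.042 to 0.18 for Col26a1 (0.08). For TBI minus Sham it was -0.026 to 0.59 for Col5a1 (0.23). The cause was not tested. No scaling moved the median of all genes by over 0.1 on the log2 scale.

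Libraries with the same title number did not deviate together in every pair (correlations -0.095 to 0.326), and the numbers are used here only to name the libraries. The titles also hold a second code with other numbers, and a pairing by that code was not tested. With the title number as a replicate block the calls numbered 19 for TBI and 8 for C-β-LG/DSF, each against Sham, and 0 between the injured groups. Fragment counts are not given, and the authors' intervals are the only estimate of the error of single values. These included 0 in all 9 libraries for the measured genes Col2a1, Col6a4, Col13a1 and Col14a1 and in 6 of 9 for the called genes Col24a1 and Col11a1.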
